A study of Mus musculus with 56 samples.

Results

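The subject is a set of 10 transcripts of fat cells (adipocytes) that were measured in pieces of gastrocnemius, a calf muscle, of mice fed only by day or only by night. The members are the rows of the deposited muscle table whose gene ID belongs to Adipoq, Lep, Cfd, Retn, Fabp4, Plin1, Cidec, Car3, Pck1 or Cyp2e1. All 10 of 10 were found among the 19072 genes of the table, and all 10 passed the minimum mean level used for testing, as did 12025 genes in all. They were chosen by name, and the choice was made with earlier values of these libraries known, namely the fitted 24 h rhythms of Pck1, of Cyp2e1 and of an adipocyte score in each feeding regimen. Rhythm values of the members are therefore a description: no p-value is given for a member's rhythm, and counts of members past a rhythm threshold support nothing.

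The mice were female C57BL/6J animals, aged 9 weeks, under a cycle of 12 h light and 12 h dark. After 7 days of chow at will, each was fed for 7 days either in the light phase only (daytime-restricted feeding, DRF) or in the dark phase only (nighttime-restricted feeding, NRF), and no group was fed at will at collection. Muscle was taken at zeitgeber time (ZT, hours from lights on) 0, 4, 8, 12, 16, 20 and 24, which gives 14 groups of 4 libraries, or 56. The labels give only a replicate number, so whether each library is a separate mouse is not stated, and p-values measure the spread between these libraries.

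Fat cells lie between the fibres and around the bundles of a muscle, and a dissected piece carries some of them along. A white fat cell stores triglyceride in a single large droplet, coats that droplet with proteins, and secretes hormones. Some of its genes are under hormonal control through the day, since insulin holds back, and fasting signals raise, the transcription of Pck1. In a bulk sample, fewer fat cells and less of a transcript per fat cell cannot be told apart.

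Levels are CPM, recovered reads per 1000000 of the authors' library size. The libraries held 28173235 to 36183625 recovered reads. The muscle label was checked against 8 fibre genes, whose summed level was 102246 to 217557 CPM. White fat genes outside the members were present, with 20 of 22 listed genes at a mean of at least 1 CPM. The summed level of 5 brown fat markers was low, at 0.67 to 7.9 CPM. The defining one, Ucp1, had a median of 0 CPM and reached 3.48 CPM, while Zic1 had a mean of 1.3 CPM and Cidea of 0.865 CPM. The 4 kidney markers were at 0 in every library. Of 7 liver markers, which belong to a tissue where Cyp2e1 and Pck1 are also abundant, the summed level had a median of 1.3 CPM, ran from 0.0352 to 168 CPM, and exceeded 10 CPM in 13 libraries.

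The promoters of Pck1 and Cyp2e1, the pair set against the others, and of Lep, the other member with a match, are shown because the members were searched for motifs of hormone and clock control. RefSeq entries on GRCm38.p6 were matched for 8 of the 10 members, Fabp4 and Car3 not among them. Each sequence gives the 250 bases before the start, 5′ to 3′ on the + strand, in lower case with a matched motif in capitals.
Pck1 (chr2:173152823-173153072): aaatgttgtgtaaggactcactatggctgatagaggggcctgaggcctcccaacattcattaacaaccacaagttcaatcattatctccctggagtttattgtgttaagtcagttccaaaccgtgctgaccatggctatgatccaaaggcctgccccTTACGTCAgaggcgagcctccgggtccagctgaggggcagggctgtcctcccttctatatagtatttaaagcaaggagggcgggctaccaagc
Cyp2e1 (chr7:140763569-140763818): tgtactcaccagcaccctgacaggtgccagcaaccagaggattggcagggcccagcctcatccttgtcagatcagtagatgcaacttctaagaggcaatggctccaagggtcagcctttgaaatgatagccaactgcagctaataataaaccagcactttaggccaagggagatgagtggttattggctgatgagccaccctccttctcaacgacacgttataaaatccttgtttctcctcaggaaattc
Lep (chr6:29059971-29060220): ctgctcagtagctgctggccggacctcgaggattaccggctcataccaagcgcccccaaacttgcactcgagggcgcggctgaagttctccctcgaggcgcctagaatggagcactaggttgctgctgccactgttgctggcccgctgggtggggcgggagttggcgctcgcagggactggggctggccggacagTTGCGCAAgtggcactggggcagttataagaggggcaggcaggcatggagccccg

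In 300-base windows (250 before and 50 after the start), both strands were searched for the cyclic AMP response element TGACGTCA and its variant TTACGTCA, the E-box CACGTG, the D-box TTATGTAA, the C/EBP palindrome TTGCGCAA and the PPAR core hexamer AGGTCA. Pck1 held TTACGTCA, whose first base lies at -93 from the start, and 0.499% of all 32851 promoters in the table held it. Lep held TTGCGCAA from -55, a motif in 0.183% of all promoters. No other match was found in these 8 members' windows, where TGACGTCA was in 1.79% of all promoters, CACGTG in 7.15%, TTATGTAA in 0.938% and AGGTCA in 16.3%. These letters describe the windows and show no binding.

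Adipokines, the hormones and secreted proteins of fat cells, come first. Adipoq (adiponectin, gene 11450, chromosome 16, 23146536 to 23157968) ran from 4.04 CPM to 76.8 CPM over the 56 libraries, with a median of 15.2 CPM. Lep (leptin, gene 16846, chromosome 6, 29060221 to 29073876), which signals fat stores to the brain, ran from 0.119 CPM (4 reads) through a median of 2.51 CPM to 15.6 CPM. Cfd (adipsin, a complement protease, gene 11537, chromosome 10, 79890853 to 79892655) ran from 19.7 CPM through 82.7 CPM to 309.5 CPM. Retn (resistin, gene 57264, chromosome 8, 3655770 to 3659818) ran from 1.72 CPM through 8.01 CPM to 30.5 CPM. The highest library of each was thus 15.7 to 131 times the lowest.

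Genes of the lipid droplet and of fatty acid handling spanned similar ranges, except Fabp4. Plin1 (perilipin 1, which coats the droplet and gates lipolysis, gene 103968, chromosome 7, 79721164 to 79732904) ran from 1.31 CPM through 5.72 CPM to 24.6 CPM. Cidec (which fuses and enlarges droplets, gene 14311, chromosome 6, 113424634 to 113435760) ran from 2.08 CPM through 9.75 CPM to 38.7 CPM. Fabp4 (a fatty acid carrier also made by capillary endothelium, gene 11770, chromosome 3, 10204342 to 10208616) ran only from 98.1 CPM through 185 CPM to 337 CPM, a factor of 3.43.

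Among the enzymes, Car3 stood apart. Car3 (carbonic anhydrase 3, abundant in fat cells and in slow muscle fibres, gene 12350, chromosome 3, 14863538 to 14872381) ran from 3166 CPM through 4843 CPM to 7199 CPM, a factor of 2.27. Pck1 (cytosolic phosphoenolpyruvate carboxykinase, which makes glycerol backbone for triglyceride in fat cells, gene 18534, chromosome 2, 173153073 to 173159274) ran from 0.451 CPM through 5.44 CPM to 33.1 CPM. Cyp2e1 (a cytochrome that oxidises ethanol and other small molecules, gene 13106, chromosome 7, 140763819 to 140774990) ran from 4.40 CPM through 24.3 CPM to 117.5 CPM. The mean over all libraries was also divided by the gene length, in kilobases, recovered from the authors' score. It was 1700 CPM for Car3, 110.5 for Cfd, 41.7 for Fabp4, 14.6 for Cyp2e1 and 13.9 for Adipoq. For the others it was 6.67 for Cidec, 5.72 for Retn, 2.33 for Pck1, 1.44 for Plin1 and 1.06 for Lep. The length for Fabp4, 4489 bases, exceeds the span of its locus, so it is not a transcript length. The order of genes on this scale depends on these lengths.

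**Figure D1:**
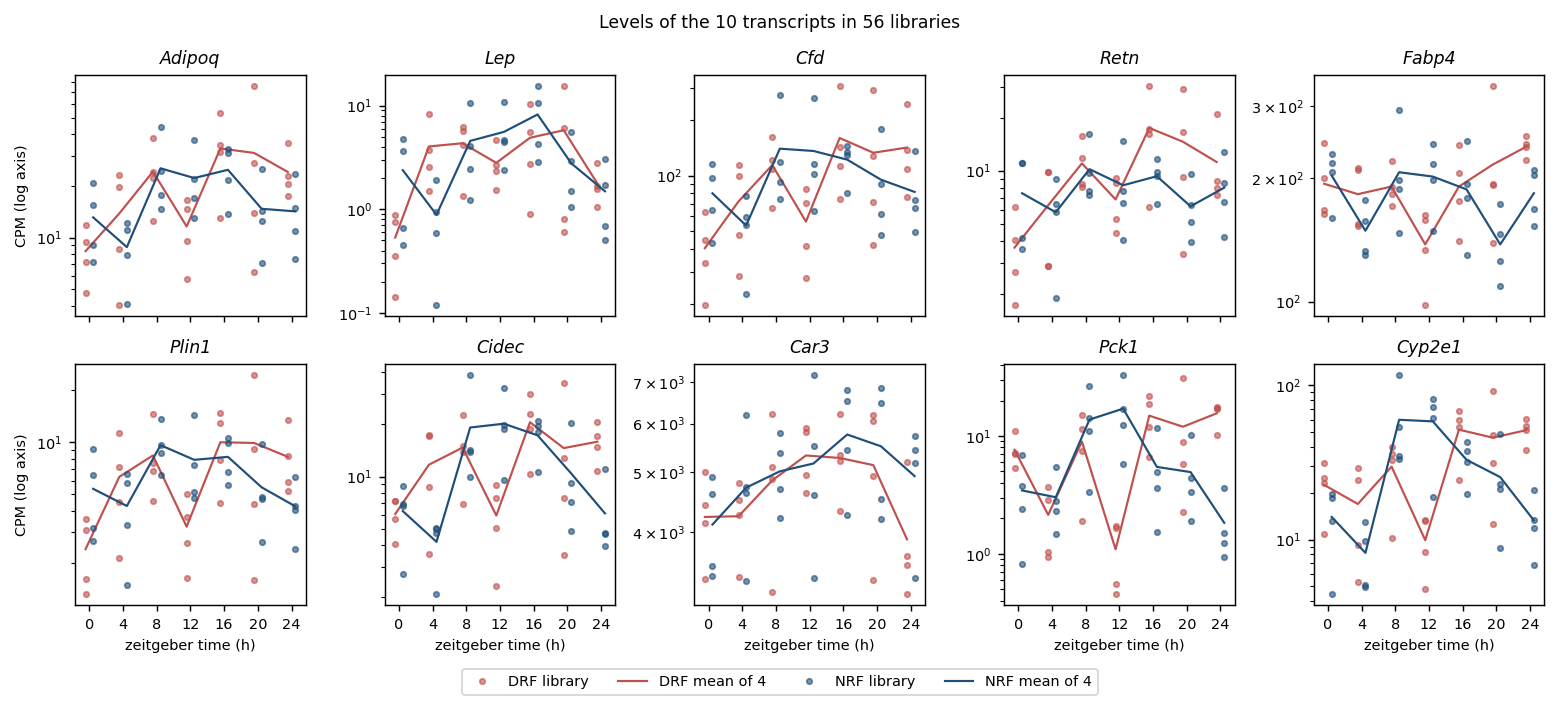
Levels (CPM, log axis) of the 10 transcripts against zeitgeber time in DRF (red) and NRF (blue). Points are libraries and lines join the means of 4. The spread within a group is wide for every gene except Fabp4 and Car3, whose highest and lowest libraries differ by factors of 3.43 and 2.27.

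Libraries of 1 group differed far more in these transcripts than in most genes. The within-group standard deviation of log2(CPM + 1) was 0.69 to 0.86 in 8 members, with Lep (0.86) and Pck1 (0.83) at the top, against a median of 0.165 over all 12025 genes. At least 99% of genes had a smaller spread than each of these 8. Fabp4 (0.30) and Car3 (0.32) had a larger spread than 88.1% and 89.8% of genes. The widest group was DRF ZT20. Adipoq there was 6.29, 13.9, 76.8 and 27.3 CPM in replicates 1 to 4, a coefficient of variation of 102%, and replicate 3 was the highest Adipoq library of the study. Cyp2e1 in the same libraries was 12.6, 31.3, 91.6 and 47.9 CPM, and Pck1 was 2.26, 5.79, 31.1 and 8.97 CPM. The same library was highest, and the same lowest, in all 3 genes.

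The same measure was then taken over all groups. For each member, the deviation of each library from the mean of its group was correlated with the mean deviation of the other members of a core of 8 (all but Pck1 and Cyp2e1), over the 56 libraries. The p-values are from two-sided permutation tests that shuffle libraries within groups (100000 resamples, Benjamini-Hochberg over the 10 members, smallest possible p 1e-05). Joint spread was named when the members were chosen, so the values describe these libraries and support nothing beyond them. Pearson's r was 0.979 for Adipoq, 0.969 for Plin1, 0.922 for Retn, 0.913 for Cfd, 0.905 for Cidec and 0.748 for Lep, each with a permutation p of 1e-05 (adjusted 1.43e-05). Spearman's rho for these 6 was 0.979, 0.956, 0.916, 0.911, 0.901 and 0.739, with the same p and adjusted p. Without the 2 libraries farthest from the median, r remained between 0.682 (Lep) and 0.972 (Adipoq). Between pairs of these 6 genes r was 0.618 to 0.961, with a median of 0.908.

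Pck1 and Cyp2e1, which are not in the core, correlated with it from library to library as well. Cyp2e1 had r 0.846 and rho 0.846 (permutation p 1e-05 and adjusted p 1.43e-05 for each, r 0.821 without the 2 farthest libraries). Pck1 had r 0.647 (permutation p 6e-05, adjusted 7.5e-05) and rho 0.604 (permutation p 5e-05, adjusted 6.25e-05), with r 0.551 without the 2 farthest libraries. Within DRF alone r was 0.919 for Cyp2e1 and 0.693 for Pck1, and within NRF alone 0.761 and 0.611. The difference between the 2 regimens was not tested.

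Fabp4 correlated with the core less strongly, and for Car3 no relation passed the threshold. Fabp4 had r 0.522 (permutation p 0.00127, adjusted 0.00141) and rho 0.492 (permutation p 0.00093, adjusted 0.00103), with r 0.465 without the 2 farthest libraries. Car3 had r 0.202 (permutation p 0.225, adjusted 0.225) and rho 0.151 (permutation p 0.34, adjusted 0.34), and r 0.069 without the 2 farthest. Markers of other cells moved with both. Over the 56 libraries Car3 had r 0.75 with the summed level of 8 muscle fibre genes and r -0.779 with that of 6 endothelial genes (permutation p 1e-05 and adjusted p 3e-05 for each). The matching rho values were 0.68 and -0.746 (permutation p 1e-05, adjusted 3e-05), and r without the 2 farthest libraries was 0.708 and -0.752. Fabp4 had the opposite signs, r -0.586 with the fibre genes (permutation p 4e-05, adjusted 8e-05, rho -0.632 with permutation p 2e-05 and adjusted p 4e-05) and r 0.383 with the endothelial genes (permutation p 0.0273, adjusted 0.041, rho 0.405 with permutation p 0.007 and adjusted p 0.0105). Without the 2 farthest libraries these were -0.587 and 0.397. All 6 endothelial and all 8 fibre markers were above a mean of 1 CPM, with sums of 185 to 509 and 102246 to 217557 CPM, and their part in the Fabp4 and Car3 levels was not tested.

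**Figure D2:**
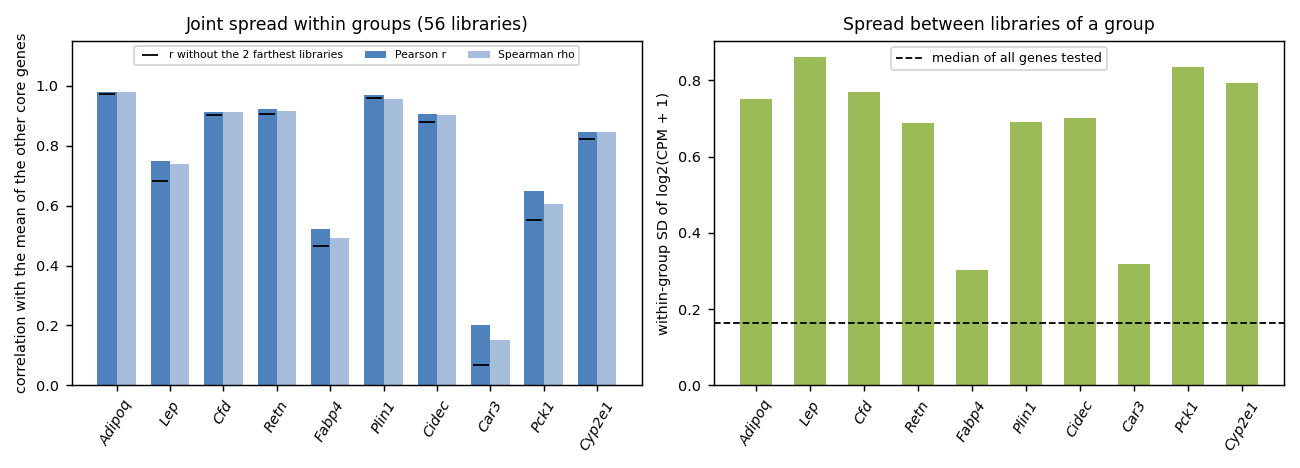
Left, correlation of each member's within-group deviation with the mean of the other core genes over 56 libraries (dark bars Pearson, light bars Spearman, black marks r without the 2 farthest libraries). Right, within-group SD of log2(CPM + 1), with the median of all genes dashed at 0.165. Fabp4 and Car3 have the lowest bars in both panels.

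None of 10 relations between the core and markers or depth passed the threshold. The core mean deviation was set against the summed levels of 9 marker lists and against the recovered read total, each over 56 libraries. The largest was with endothelium (r -0.366, permutation p 0.0273, adjusted 0.273, rho -0.348 with permutation p 0.0198 and adjusted p 0.198, r -0.27 without the 2 farthest libraries). For nerve sheath r was 0.282 (permutation p 0.0976, adjusted 0.288, rho 0.198 with permutation p 0.204 and adjusted p 0.476, r 0.21 without the 2 farthest). For macrophages r was 0.271 (permutation p 0.0706, adjusted 0.288, rho 0.28 with permutation p 0.062 and adjusted p 0.31, r 0.298 without the 2 farthest). For liver r was 0.27 (permutation p 0.115, adjusted 0.288, rho 0.209 with permutation p 0.184 and adjusted p 0.476, r 0.121 without the 2 farthest). For depth r was -0.0262 (permutation p 0.858, adjusted 0.973, rho 0 with permutation p 1 and adjusted p 1, r -0.00671 without the 2 farthest).

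Among 20 white fat genes outside the members, 16 had a within-group r above 0.5 with the core mean (median 0.721), against 1.65% of all genes (median -0.0297). The 6 genes outside the members with the highest r over the 56 libraries were Slc7a10 (0.947, an amino acid transporter, its reads shared with other genes and so uncertain), Prkar2b (0.945, a regulatory subunit of protein kinase A), Cdo1 (0.944, which oxidises cysteine), Lgals12 (0.944, a galectin of the lipid droplet), Cebpa (0.943, a transcription factor that drives fat cell formation) and Acp5 (0.928, an acid phosphatase). The 4 white fat genes under 0.5 were Pnpla3 (0.416), Sult1a1 (0.362), Npr3 (0.237) and Aqp7 (-0.303), named after their values were seen.

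**Figure D3:**
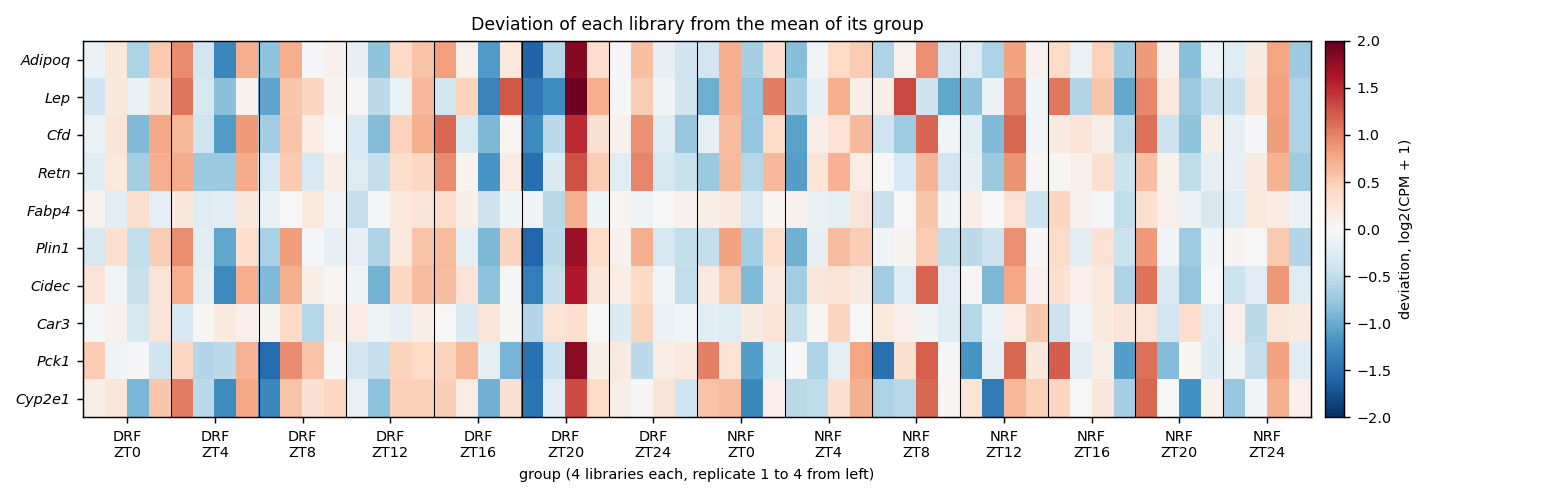
Deviation of each library from its group's mean, on the log2(CPM + 1) scale, for the 10 members (rows) in 56 libraries (columns, 4 per group). The strongest columns are DRF ZT20 replicate 1, with a core mean deviation of -1.18, and replicate 3, with 1.36. Rows of Fabp4 and Car3 are pale.

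On average over the day, 0 of the 10 members differed between DRF and NRF by limma (0 also at an unadjusted p under 0.05), where 15.9% of all genes tested were called. The DRF minus NRF difference ran from -0.10 (Cfd, SE 0.20) to 0.22 (Retn, SE 0.18) on the log2 scale with a median of 0.03, against a median of -0.00143 over all genes. The standard errors of 0.18 to 0.23 for 8 members, Fabp4 and Car3 apart, limit what could be detected.

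The start and the end of the sampled day were compared next, the same clock time a day apart in separate libraries. By limma, 0 of 10 members were called between ZT24 and ZT0 in DRF, where 0.274% of all genes were called, but 6 had an unadjusted p under 0.05, as had 19% of genes. Cfd was 33.5, 44.3, 19.7 and 63.4 CPM at ZT0 and 138, 245, 109 and 76 CPM at ZT24. These libraries did not overlap, and the difference was 1.78 on the log2 scale (SE 0.52, limma adjusted p 0.0963). Plin1 was 1.62, 3.08, 1.31 and 3.58 CPM at ZT0 and 8.31, 13.5, 5.89 and 5.25 CPM at ZT24, again without overlap (1.42, SE 0.47, limma adjusted p 0.125). Differences for the other members were 1.44 for Adipoq, 1.36 for Retn, 1.25 for Cidec, 1.22 for Cyp2e1, 0.95 for Pck1, 0.85 for Lep, 0.32 for Fabp4 and -0.13 for Car3. Without the lowest and the highest DRF ZT20 library, which are in neither group but enter the estimate of spread, Cfd passed (limma adjusted p 0.0474), as it did without the lowest alone (DRF ZT20 replicate 1).

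In NRF the same 2 times, a full day apart, gave 0 of 10 calls, where 0% of all genes were called by limma. There 0 members, and 7.77% of genes, had an unadjusted p under 0.05, and differences ran from -0.55 (Pck1) to 0.25 (Car3). The difference of the ZT24 minus ZT0 change between the regimens, a test added after seeing the data, gave 0 of 10 calls by limma (adjusted p 0.755 for Cfd). The share of all genes called in it is not given. In that test 2 of 10 members, and 6.3% of genes, had an unadjusted p under 0.05.

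**Figure D4:**
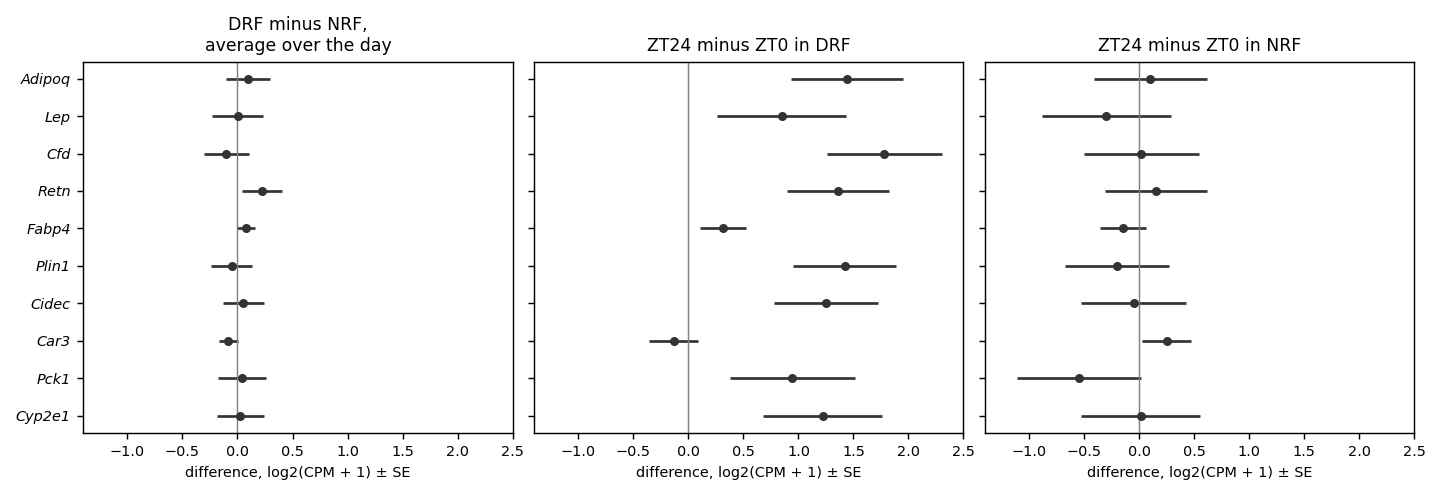
Differences on the log2(CPM + 1) scale with standard errors for the 10 members: DRF minus NRF on average over the day, and ZT24 minus ZT0 in each regimen. Average differences lie between -0.10 and 0.22. In DRF, ZT24 values are above ZT0 values for all members except Car3 (-0.13).

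Of 70 tests (10 members at 7 times), limma called 5, namely Pck1, Cyp2e1 and Cidec at ZT12 and Pck1 and Cyp2e1 at ZT24. The share of all genes called was 1.85% at ZT0, 0.973% at ZT4, 0.208% at ZT8, 3.5% at ZT12, 10.8% at ZT16, 2.96% at ZT20 and 5.56% at ZT24. The 3 of 10 members at ZT12 and 2 of 10 at ZT24 include the pair chosen for its rhythm, whose values are a description. The rhythm of an adipocyte score in each regimen was known as well. The call of Cidec, a fat cell gene, is therefore a description too. Cidec was 5.04, 2.32, 7.55 and 8.91 CPM at ZT12 in DRF and 18.9, 9.53, 32.6 and 19.8 CPM in NRF, so every DRF library lay below every NRF library. Its difference was -1.61 (SE 0.48, limma adjusted p 0.0473), and it was not called under 8 alternatives, with adjusted p from 0.0512 to 0.212, nor in 18 of 56 fits that left out 1 library. Among them was the fit with the replicate number as a block (-1.61, adjusted p 0.055). Fabp4 at ZT12 was 138 ± 29.6 CPM in DRF and 202 ± 39.4 CPM in NRF (SD, n = 4 each), a difference of -0.55 that limma did not call (adjusted p 0.114).

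The lowest Pck1 group mean of the study, and its lowest single library, were at ZT12 in DRF. Pck1 there was 0.551, 0.451, 1.72 and 1.65 CPM, and 5.81, 12.4, 33.1 and 17 CPM at ZT12 in NRF, so that all DRF libraries were below all NRF libraries (difference -2.94, SE 0.57). At ZT24 it was 17.3, 10.3, 17.1 and 17.6 CPM in DRF against 1.49, 0.931, 3.63 and 1.24 CPM in NRF, the reverse order and again without overlap (2.61, SE 0.57). In DRF the group means ran from 1.09 ± 0.685 CPM (ZT12) and 2.14 ± 1.37 (ZT4) through 7.65 ± 2.37 (ZT0), 8.98 ± 5.66 (ZT8), 12 ± 13 (ZT20) and 14.9 ± 6.89 (ZT16) to 15.6 ± 3.53 (ZT24, SD, n = 4 each). In NRF they ran from 1.83 ± 1.23 (ZT24), 3.02 ± 1.74 (ZT4), 3.45 ± 2.56 (ZT0), 4.94 ± 3.65 (ZT20) and 5.47 ± 4.41 (ZT16) to 13.8 ± 9.79 (ZT8) and 17.1 ± 11.6 (ZT12). Neighbours in either order overlapped within their SD, except the step from ZT4 to ZT0 in DRF.

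Cyp2e1 shared with Pck1 the DRF minimum at ZT12 and the direction of the differences at ZT12 and ZT24. At ZT12 it was 8.27, 4.80, 13.2 and 13.3 CPM in DRF and 61.4, 18.8, 81.5 and 72 CPM in NRF, with no overlap (-2.35, SE 0.54). At ZT24 it was 54.8, 51.4, 60.5 and 38.1 CPM in DRF and 6.88, 11.9, 20.9 and 13.4 CPM in NRF, with no overlap in the other direction (1.94, SE 0.54). The NRF group means were 59.8 ± 39.5 CPM at ZT8 and 58.4 ± 27.7 at ZT12 against 8.19 ± 3.90 at ZT4, and the DRF means were 51.6 ± 19.2 at ZT16 and 51.2 ± 9.53 at ZT24 against 9.90 ± 4.13 at ZT12 (SD, n = 4 each).

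Liver markers varied beside these values. Their summed group mean was highest in NRF ZT12 (48.8 CPM) and lowest in DRF ZT0 (0.183 CPM), and Alb, the albumin gene, reached 138 CPM in 1 NRF ZT12 library with 72 CPM of Cyp2e1. In NRF ZT24 a library with 79.3 CPM of Alb held 13.4 CPM of Cyp2e1. Over 56 libraries the within-group r with the liver sum was 0.243 for Cyp2e1 (permutation p 0.135, adjusted 0.135, rho 0.178 with permutation p 0.253 and adjusted p 0.253, r 0.252 without the 2 farthest libraries) and 0.284 for Pck1 (permutation p 0.117, adjusted 0.135, rho 0.234 with permutation p 0.154 and adjusted p 0.185, r 0.237 without the 2 farthest). Leaving out the 13 libraries over 10 CPM left 2 libraries each in NRF ZT12 and NRF ZT24, and 4 each in DRF ZT12 and DRF ZT24. The ZT12 difference was then -2.25 for Pck1 and -1.78 for Cyp2e1, and the ZT24 difference was 2.25 and 1.97, in the same directions. In that subset limma called 2 of the 70 tests, both of Pck1. DRF ZT8, DRF ZT20 and NRF ZT8 also held only 2 libraries there, and the share of all genes called in it is not given. The part of liver RNA in these levels was not tested further.

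Fitted 24 h curves summarise the members' day. As a description, 4 of 10 members (Lep, Cidec, Pck1 and Cyp2e1) were past limma's threshold for a rhythm in NRF, as were 15.1% of all genes, and 2 of 10 (Pck1 and Cyp2e1) in DRF, as were 48.7%. The curves differed between regimens in 3 of 10 (Cidec, Pck1 and Cyp2e1), where 13.1% of all genes did. These counts use the values that helped to choose the members, so they are no test of them and nothing is read from them. Without the 13 libraries with liver markers over 10 CPM the counts were 1 in NRF, 4 in DRF and 2 for the difference. Only 2 libraries were then left in each of NRF ZT8, NRF ZT12, NRF ZT24, DRF ZT8 and DRF ZT20. The share of all genes in that subset is not given. In the authors' deposited table the same 4 members had a rhythm q under 0.05 in NRF, where 7.16% of its genes did, and 0 of 10 in DRF, where 15.9% did.

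In NRF, Cidec peaked at ZT13.2 (SE 0.88 h) with a peak-to-trough of 1.90 on the log2 scale (SE 0.40), Lep at ZT14.2 (SE 0.98 h) with 1.84 (SE 0.45), Pck1 at ZT11.3 (SE 1.04 h) with 2.10 (SE 0.51) and Cyp2e1 at ZT12.7 (SE 0.87 h) with 2.28 (SE 0.46). Adipoq peaked there at ZT13.4 (SE 1.56 h, 1.12), Cfd at ZT13.6 (SE 1.8 h, 1.01) and Plin1 at ZT12.3 (SE 1.82 h, 0.91). The NRF peak was at ZT12.5 for Retn (SE 3.91 h, 0.41), ZT15.2 for Car3 (SE 1.96 h, 0.32) and ZT9.53 for Fabp4 (SE 2.89 h, 0.24). In DRF, Pck1 peaked at ZT20.6 (SE 1.13 h) with 1.81 (SE 0.55) and Cyp2e1 at ZT20.1 (SE 1.24 h) with 1.46 (SE 0.51). DRF peaks of the other members were spread and mostly loosely fixed. Adipoq peaked at ZT16.3 (SE 2.08 h), Cfd at ZT16.7 (SE 2.58 h), Retn at ZT15.6 (SE 1.45 h) and Plin1 at ZT16 (SE 4.74 h), with peak-to-trough values of 0.32 (Plin1) to 1.01 (Retn). Lep peaked at ZT11.8 (SE 2 h, 0.94), Car3 at ZT14.1 (SE 1.47 h, 0.44) and Fabp4 at ZT23.2 (SE 1.55 h, 0.46). The DRF curve of Cidec spanned 0.33 (SE 0.44), and its peak time there had a wide error (ZT18.2, SE 4.58 h). A single 24 h curve does not follow the DRF means of most members closely, Pck1 and Cyp2e1 included. Each DRF mean except that of Car3 was lower at ZT12 than at both ZT8 and ZT16. For Fabp4, whose DRF curve peaked at ZT23.2, a low at ZT12 goes with the curve.

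Pck1 and Cyp2e1 were then expressed relative to the mean log2 level of the 8 core members in the same library. The core mean itself spanned 0.94 from peak to trough in NRF (SE 0.31, peak ZT13.3) and 0.46 in DRF (SE 0.34, peak ZT15.6). The within-group SD was 0.83 for Pck1 alone and 0.64 relative to the core, and 0.79 and 0.44 for Cyp2e1. Pck1 minus the core mean spanned 1.74 from peak to trough in DRF (SE 0.43) with a peak at ZT21.5 (SE 0.97 h) and of 1.38 in NRF (SE 0.42) with a peak at ZT9.91 (SE 1.24 h). Cyp2e1 minus the core mean had 1.34 in DRF (SE 0.29) with a peak at ZT21.3 (SE 0.84 h) and 1.36 in NRF (SE 0.27) with a peak at ZT12.2 (SE 0.87 h).

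By group, Pck1 was lowest against the core in DRF ZT12, at -3.77 ± 0.19 on the log2 scale, and was -1.59 ± 0.59 in NRF ZT12 (SD, n = 4 each). At ZT24 it was -1.42 ± 0.74 in DRF and -3.49 ± 0.31 in NRF. Cyp2e1 was -1.42 ± 0.22 in DRF ZT12 and 0.18 ± 0.68 in NRF ZT12, and 0.25 ± 0.40 in DRF ZT24 and -1.16 ± 0.45 in NRF ZT24. With Adipoq alone as the reference, the DRF peaks were at ZT22.2 for both genes, and the NRF peaks at ZT9.49 (Pck1) and ZT12 (Cyp2e1). The peak-to-trough was then 1.62 in DRF and 1.28 in NRF for Pck1, and 1.21 and 1.19 for Cyp2e1. Another reference, chosen after seeing the data, was the mean of the 6 core members without Fabp4 and Car3. Against it the peak-to-trough was 1.78 in DRF and 1.25 in NRF for Pck1, and 1.38 and 1.13 for Cyp2e1.

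**Figure D5:**
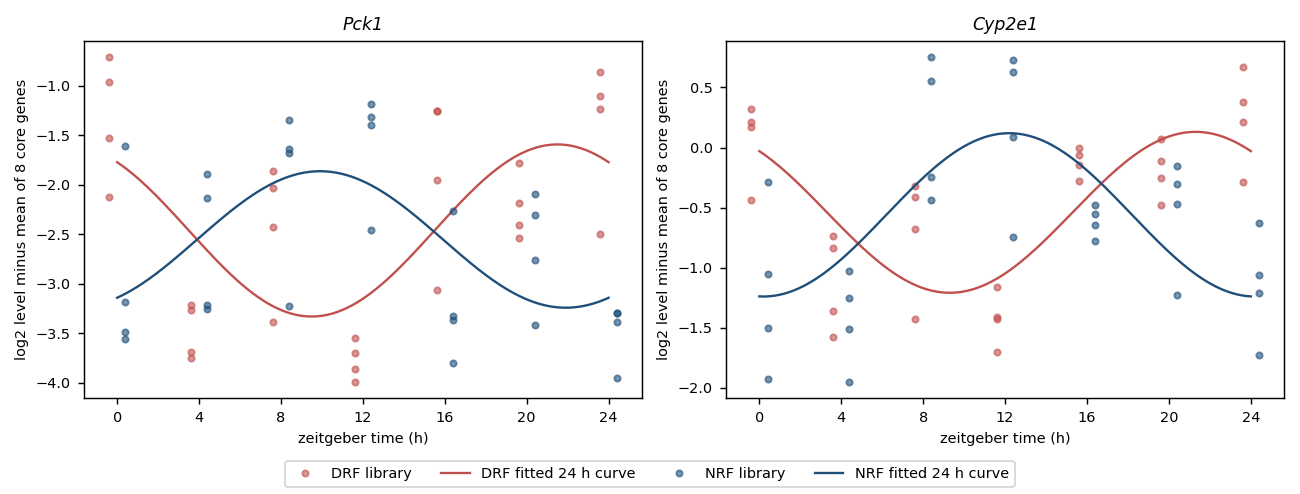
Log2 level of Pck1 (left) and Cyp2e1 (right) minus the mean log2 level of the 8 core members in the same library, against zeitgeber time. Points are libraries (DRF red, NRF blue) and lines are fitted 24 h curves. At ZT12 in DRF the means are -3.77 and -1.42.

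The genes whose 14 group means were most like those of Pck1 by Pearson's r, given as a description, were Cln3 (0.89, a lysosomal membrane protein), Snx8 (0.887, a sorting nexin), Chst1 (0.877, a sulphotransferase), Rasd1 (0.873, a small GTPase) and Edem2 (0.861, which acts on misfolded glycoproteins). Those most like Cyp2e1 were Chst1 (0.942), Lgals12 (0.925), Prkar2b (0.922), Phgdh (0.884, the first enzyme of serine synthesis) and Rasd1 (0.882). Pck1 and Cyp2e1 had r 0.919 with each other. Of the other members, Cidec was most like both (0.761 with Pck1 and 0.913 with Cyp2e1), and Car3 least (-0.07 and 0.137). Group means of different genes come from the same libraries.

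Of the 20 other white fat genes tested (Ffar4 and Klb were below the minimum), 6 passed the rhythm test in NRF, 6 in DRF and 3 for a difference between regimens, beside 15.1%, 48.7% and 13.1% of all genes. Among those that passed were the genes with a within-group r under 0.5 with the core mean. These were Pnpla3 (0.416), Sult1a1 (0.362), Npr3 (0.237) and Aqp7 (-0.303). The list was drawn up with earlier results of these data known, so its counts and p-values are a description. Whether the rhythms of the listed genes arise in fat cells was not tested. Pnpla3, a lipase-like protein induced by feeding, spanned 2.58 from peak to trough in NRF (SE 0.24, limma adjusted p 7.32e-12, peak ZT20.3) and 1.02 in DRF (SE 0.24, 0.00203, peak ZT19.9), with an adjusted p of 0.00264 for the difference. It was the list's only gene called on average over the day (DRF minus NRF 0.37, SE 0.10, limma adjusted p 0.0158). Sult1a1, a sulphotransferase with reads shared with other genes and so uncertain, had 1.12 in NRF (adjusted p 3.89e-07) and 0.78 in DRF (0.000726), with 0.0064 for the difference. Trarg1, which regulates the insulin-responsive glucose transporter, had 1.11 in NRF (peak ZT11.3, limma adjusted p 0.000379) and 0.18 in DRF (0.779), with 0.0133 for the difference.

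Aqp7, the glycerol channel, likewise with shared reads, had peaks near the start of the day in both regimens, at ZT1.46 in NRF (0.89, limma adjusted p 8.04e-05) and ZT23.6 in DRF (1.03, 2.62e-06). Nnat, an imprinted membrane protein, and Lgals12 passed in NRF (limma adjusted p 0.00231 and 0.0235, neither called in DRF), and the difference was not called for either (0.0944 and 0.108). Npr3, which clears natriuretic peptides, and Thrsp, a lipogenic nuclear protein, passed in DRF (0.00456 and 0.0177, against 0.69 and 0.251 in NRF), and neither difference was called (0.147 and 0.371). With the core mean as a covariate 10 of the 20 passed in DRF and 7 for the difference, and without ZT24 the difference passed in 1. The shares of all genes under these settings are not given, so nothing is read from these changes. The list's median peak-to-trough was 0.49 in each regimen, against 0.16 in NRF and 0.26 in DRF over all genes. A fitted peak-to-trough cannot be negative and grows with the spread between libraries. That spread was not matched here, so these medians do not compare the strength of rhythms.

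The pathways around the members were counted in the same way, beside 15.1% of all genes for rhythm in NRF, 48.7% in DRF, 13.1% for the difference and 15.9% for the average over the day. Of 16 lipid genes that muscle fibres also express, 3 passed the rhythm test in NRF, 12 in DRF and 6 for a difference, and 2 were higher in DRF on average, Plin5 (a droplet coat protein of oxidative tissue, 0.66, SE 0.22, limma adjusted p 0.0368) and Pnpla2 (the main triglyceride lipase, 0.36, SE 0.10, adjusted p 0.0162). Of 8 genes of glyceroneogenesis and glycerol handling, the pathway of Pck1, 1 passed in NRF, 4 in DRF and 0 for a difference, and 0 were called on average. Of 7 genes of alcohol and small molecule oxidation, the chemistry of Cyp2e1, 4 passed in NRF, 3 in DRF and 1 for a difference. That gene was Por, the electron donor of cytochromes P450, which was also higher in DRF on average (0.11, SE 0.04, limma adjusted p 0.0427).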

How the data were processed

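RNA-seq libraries of gastrocnemius from 14 groups of 4 were analysed; groups came from the sample titles. The authors deposited a table headed TPM, whose values are a score rather than TPM, K × log2(1 + 1000000 × c / N) / L, with c reads, N a library size, L a gene length and K the factor that brings each column to 1000000. Per the submitters' processing notes HISAT2, Bowtie2 and RSEM were named; the sources used here give neither versions nor roles. The authors also deposited tables of rhythm p-values and q-values with fitted phases and other descriptors. The formula was inverted gene by gene for c and L, giving reads for 17443 genes (1629 genes with fewer than 4 values above 0 were left out). All 10 members gave whole reads and a single length. The inversion was tested on simulated data.

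CPM are c per 1000000 of N. Every gene whose mean CPM reached 1 was fitted by limma 3.58.1 (R 4.3.3) on log2(CPM + 1), with Benjamini-Hochberg adjustment over 12025 genes at 0.05. Fold changes on this scale understate those of low genes. Average over the day counted ZT0 and ZT24 together as 1 time. Rhythm used a cosine and a sine of 24 h per regimen. The protocol marks no strand. In the 84 pairs of libraries within a group, the median variance over counting noise was at least 3.19, so none was treated as a repeat.

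The members and lists were chosen with earlier results of these data known. Named genes are the members, up to 8 other white fat genes past a rhythm test with the smallest adjusted p, the 6 genes nearest to the core within groups, the 5 nearest to each of Pck1 and Cyp2e1 over group means, and of each other list up to 2 with the largest called average difference. Alternatives were another pseudocount, scaling, filter and log scale, a replicate block, library weights, times or libraries left out, and the core mean as a covariate. Chosen after seeing the data were a 6-gene mean, leaving out 2 DRF ZT20 libraries and leaving out 13 libraries with liver transcripts.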

Additional observations from a re-analysis of the deposited data

Results flagged for a closer look

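Of 140 groups of 4 libraries (10 members in 14 groups), 5 held 1 library far from the other 3, where chance gives about 1 in 20. Retn in DRF ZT24 was 21 CPM in replicate 2 and 7.29 to 8.73 CPM in the others. Cidec was 2.08 CPM in NRF ZT4 replicate 1 (others 4.69 to 5.06), 38.7 CPM in NRF ZT8 replicate 3 (others 9.97 to 14.3) and 11.1 CPM in NRF ZT24 replicate 3 (others 3.96 to 4.74). Pck1 in DRF ZT24 was 10.3 CPM in replicate 2 and 17.1 to 17.6 CPM in the others.

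Among white fat genes outside the members, the 24 h curve differed between regimens in 3 of 20 by limma's test of the difference. Of all genes tested, 13.1% passed the same test, so nothing is read from the count. Pnpla3 and Sult1a1 had a within-group r under 0.5 with the core mean. From peak to trough on the log2 scale, Pnpla3 spanned 1.02 in DRF against 2.58 in NRF, Trarg1 0.183 against 1.11 and Sult1a1 0.778 against 1.12.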

How the results depend on the processing

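The daily average count stayed at 0 and the joint spread count at 9 under each alternative run. The rhythm count of the members in NRF was 4, except 3 without ZT24 and 1 without the libraries with liver transcripts. In DRF it was 2, and it became 7 with the 6-gene mean as covariate, 6 with the core mean as covariate, 5 with library weights, 4 without the libraries with liver transcripts, and 1 on log2 of the deposited value, with no filter, with total-count scaling or without ZT24. For other white fat genes the DRF count of 6 became 11 (6-gene mean) or 10 (core mean), and the count differing between regimens, 3, became 7 with either covariate and 1 without ZT24. The share of all genes that passed under each alternative is not given. Whether the changed rhythm counts are particular to fat genes therefore cannot be judged. Of the 5 calls at single times, 2 are at ZT24 and go with it by construction. Without ZT24, 2 calls were left, since Cidec at ZT12 was no longer called (adjusted p 0.0623), and 2 were made without the libraries with liver transcripts. The ZT24 minus ZT0 count in DRF was 1 without both DRF ZT20 libraries. With 1 library left out, these counts ran from 1 (without DRF ZT12 replicate 1) to 4 for DRF rhythm, 0 to 1 for ZT24 minus ZT0 and 3 to 6 for single times. The count of members whose curves differed between regimens, 3, ran from 2 to 3 in those fits. It was 2 with no filter, on log2 of the deposited value, with the replicate block or without ZT24. It was also 2 without the libraries with liver transcripts, and 4 without ZT0 or with either covariate. The causes were not tested.

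Daily averages near 0 changed sign. Without ZT24, Adipoq was -0.0158, Lep -0.0943, Cidec -0.0563, Pck1 -0.0851 and Cyp2e1 -0.0736. Without the libraries with liver transcripts, Adipoq was -0.0877, Fabp4 -0.0431, Cidec -0.142, Car3 0.001, Pck1 -0.15 and Cyp2e1 -0.161. Scaling by total counts (median shift over all genes -0.0756) gave Lep -0.0496, Fabp4 -0.00427, Cidec -0.0184, Pck1 -0.0248 and Cyp2e1 -0.048. Lep was -0.0417 without both DRF ZT20 libraries, and Pck1 -0.0692 on the deposited value and -0.00112 with pseudocount 0.25. Cfd was 0.0234 with library weights and 0.0461 without ZT0, and Plin1 0.0673 and 0.0823. With 1 library left out the range was -0.00527 to 0.185 for Adipoq, -0.107 to 0.0807 for Lep, -0.149 to 0.0346 for Plin1, -0.0365 to 0.129 for Cidec, -0.0609 to 0.125 for Pck1 and -0.0509 to 0.108 for Cyp2e1.

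Same-numbered libraries of different groups had a mean r of -0.0166 over 364 pairs (-0.674 to 0.683), against 0.0058 over 1092 differently numbered pairs (-0.691 to 0.753). No pairing by number was seen on average. A mean over all pairs and genes cannot exclude a pairing shared by some groups or genes. With the replicate block the members' rhythm counts were 4 in NRF, 3 in DRF and 2 for the difference, and 4 calls stood at single times. Lep had as few as 4 reads in a library, so its low values carry the most counting error.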
